A study of Mus musculus with 18 samples.

Results

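The 93 genes described here encode the nuclear part of oxidative phosphorylation in cells of the mouse main olfactory epithelium (MOE). They are the rows of the expression table, 93 of 23359 gene symbols, whose symbol begins with Nduf, Uqcr or Atp5, is Sdha to Sdhd or Cyc1, or is Cox4 to Cox8 with a letter or i suffix. The rule used names alone and no measured value, but it was set with earlier results of these data known. By the known roles of their products, 36 belong to complex I, 4 to complex II, 9 to complex III, 19 to complex IV, 15 to complex V, and 10 are assembly factors or other proteins that carry such a name.

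RNA-seq was carried out on cells separated by fluorescence-activated cell sorting (FACS) from 2 knock-in mouse lines. In Taar5-ires-Cre;lox-L10-GFP and Taar6-ires-Cre;lox-ZsGreen mice, Cre recombinase made from a trace amine-associated receptor (TAAR) transcript switches on a permanent green reporter. The reporter marks cells that have used that receptor gene at any time, in olfactory sensory neurons (OSNs) that detect volatile amines. The other sorted cells served as controls and were mostly OSNs with an odorant receptor (OR). All mice were C57BL/6 by the labels, while the study's reporting summary describes a mix with the 129 strain. The Taar5 line, aged 11 to 14 days after birth by the labels, gave 7 libraries of GFP-positive cells (Taar5+) and 9 of GFP-negative cells (control). The Taar6 line, aged 16 to 17 days, gave 1 library of ZsGreen-positive cells (Taar6+) and 1 of ZsGreen-negative cells. The study's reporting summary names an older age for both lines. Controls carried the same alleles as the positive cells of their line. The labels do not say whether libraries came from separate mice, so p-values measure only the spread between libraries, which may be technical.

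Oxidative phosphorylation makes ATP in the inner mitochondrial membrane. Complexes I and II pass electrons from NADH and succinate to ubiquinone, complex III hands them to cytochrome c, complex IV reduces oxygen, and complex V, the ATP synthase, uses the proton gradient that results. Most subunits are encoded in the nucleus and a few in the mitochondrial genome, which has 0 rows in this table. OSNs fire action potentials and pump ions across long cilia and axons, and their dendrites and axons hold mitochondria. Several complex IV subunits and the c subunit of complex V have alternative isoforms or gene copies, some known mainly from heart, muscle, lung or testis.

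The values are transcripts per 1000000 (TPM), a share of the library corrected for transcript length, so that levels of different genes in 1 library can be compared. Such shares hold no record of how many reads stood behind them, so depth was unknown and intervals for counting could not be made. Mature OSN markers (5 genes) summed to between 13054 and 45101 TPM in the controls and between 18938 and 24724 TPM in the Taar5+ libraries. A pair of libraries stood apart. Taar5+ replicate 5 held 8737 TPM of the 4 sustentacular (supporting cell) markers against at most 1833 in the other Taar5+ libraries, 1517 TPM of Taar genes against at least 4542, and 5525 TPM of OR genes against at most 1999. Control replicate 2 had 5939 rows above 0 against at least 11352 in the other controls, listed at 0 637 genes that are abundant elsewhere (a median of at least 50 TPM), and held 6325 TPM of sustentacular markers against at most 783. None of the 4 sustentacular markers was at 0 in either library.

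Regulatory sequence was read at the promoters, because genes of this pathway are known to share binding motifs for the factors NRF1, ETS family members and YY1. RefSeq windows on GRCm38.p6, from 250 bases before to 50 after a transcription start, were matched for 76 of the 93 genes. The NRF1 motif GCGCATGCG stood in 10 of these windows (13.2%), against 1.75% of all 32851 windows and 3.76% of the 11789 windows of tested genes. The YY1 motif AAGATGGC stood in 10 (13.2%), against 2.75% and 4.46%. The ETS motif CCGGAAGT stood in 5 (6.58%), against 3.89% of all windows and 7.98% of those of tested genes. Both strands were searched, and none of these motifs contains another. The 10 genes with the NRF1 motif were Atp5g2, Atp5k, Atp5l, Cox6a1, Ndufa11, Ndufa8, Ndufaf4, Ndufaf5, Uqcr11 and Uqcrc1. At least 1 of the 3 motifs stood in 24 of the 76 windows (31.6%), against 7.96% of all windows. Most windows of members thus held none, among them those of the widely expressed Cox7a2, Atp5b and Cox5a. A match describes these letters and not a bound site. The 250 bases before the start are shown 5′ to 3′ for a broadly used complex IV gene and a complex V gene with the NRF1 motif (capitals, matches on both strands joined), and for the alternative isoforms Cox7a1 and Cox8b, which had none of the 3 motifs in the window.
Cox6a1 (chr5:115348959-115349208, minus strand): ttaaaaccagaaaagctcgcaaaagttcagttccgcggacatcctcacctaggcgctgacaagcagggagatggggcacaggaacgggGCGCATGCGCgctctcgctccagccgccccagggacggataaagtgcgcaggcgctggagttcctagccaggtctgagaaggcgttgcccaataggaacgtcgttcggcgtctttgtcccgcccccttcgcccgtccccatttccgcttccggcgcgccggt
Atp5k (chr5:108434400-108434649, minus strand): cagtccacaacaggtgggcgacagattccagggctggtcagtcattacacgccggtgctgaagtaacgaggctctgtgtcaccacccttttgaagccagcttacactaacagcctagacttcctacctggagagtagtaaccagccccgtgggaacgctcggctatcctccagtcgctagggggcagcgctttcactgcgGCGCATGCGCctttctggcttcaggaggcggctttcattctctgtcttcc
Cox7a1 (chr7:30183921-30184170, plus strand): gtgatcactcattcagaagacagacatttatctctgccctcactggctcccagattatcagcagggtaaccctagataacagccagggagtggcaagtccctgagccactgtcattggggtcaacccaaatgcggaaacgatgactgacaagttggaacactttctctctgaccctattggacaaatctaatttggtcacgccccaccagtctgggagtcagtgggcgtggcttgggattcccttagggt
Cox8b (chr7:140900447-140900696, minus strand): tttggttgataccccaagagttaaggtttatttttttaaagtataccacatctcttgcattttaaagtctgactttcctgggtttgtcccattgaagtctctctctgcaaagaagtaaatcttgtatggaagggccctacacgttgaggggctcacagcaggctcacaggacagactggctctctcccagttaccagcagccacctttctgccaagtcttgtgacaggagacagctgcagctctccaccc

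The windows of Cox7a1 and Cox8b were also poorer in CpG than the other windows shown. The 300-base windows of Cox7a1 and Cox8b held 7 and 2 CpG, against 32 for Cox6a1 and 19 for Atp5k. The median was 19.5 over the 76 windows, 7 over all windows and 20 over those of tested genes. Low counts were not particular to isoforms. The widely expressed subunits Cox7b and Ndufc2 had 5 and 8 CpG, and the isoforms Cox6b2 and Cox7b2 had 10 each.

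The pathway took a large part of the transcriptome of these neurons. In the controls the 93 genes summed to 54525 ± 6861 TPM (SD, n = 9), 5.45% of the library, and in the Taar5+ libraries to 63610 ± 10465 TPM (SD, n = 7), 6.36%. Over the 16 libraries of the Taar5 line, 14 members averaged at least 1000 TPM, 74 at least 100 TPM, and 7 under 5 TPM. Cox4i1, the widely expressed form of complex IV subunit 4, had the highest mean at 3059 TPM and was the 18th gene of the whole table by its mean in controls. It was followed by Ndufa4, a subunit now assigned to complex IV (2715 TPM), Atp5b, the catalytic beta subunit of the ATP synthase head (2520 TPM), and the complex IV subunits Cox6a1 (2015 TPM) and Cox8a (1994 TPM). The range of Cox4i1 in controls, 2141 to 3991 TPM, overlapped the ranges of all these neighbours. The lowest members that passed the filter on low values were Cox6b2 (3.75 TPM), Ndufaf5 (23.6 TPM), Cox8b (31.9 TPM), Atp5sl (37.1 TPM) and Ndufaf1 (45.2 TPM).

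Subunits of the same complex differed in level. The median member of a library averaged 435 ± 70.5 TPM in complex I, 371 ± 52.9 in complex II, 640 ± 95.5 in complex III, 1066 ± 292 over the 11 widely expressed subunits of complex IV and 692 ± 106 in complex V (SD, n = 9 controls). With its 8 alternative isoforms, complex IV had 411 ± 63.2 TPM. The 10 assembly factors and others were far lower, at 62.9 ± 14.8 TPM. In complex I, the iron-sulphur core subunit Ndufs1 had a control median of 224 TPM and Ndufv1, which binds NADH, had 394 TPM, whereas Ndufs7 had 585 TPM. In complex II, Sdhb, the iron-sulphur subunit, had a median of 820 TPM against 382 TPM for Sdha, the flavoprotein with which it binds. In complex III, Uqcrc1, the large core subunit, had 706 TPM, Cyc1, cytochrome c1, 574 TPM and Uqcrfs1, the Rieske iron-sulphur protein, 468 TPM. The lowest Sdhb value in controls (712 TPM) lay above the highest Sdha value (464 TPM), while the ranges of Uqcrc1, Cyc1 and Uqcrfs1 overlapped.

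The spread between control libraries was moderate. As a description with no test, the coefficient of variation was taken over the 9 controls. Its median was 21.9% for the 74 members with a control mean of at least 100 TPM. Over all 1856 genes with such a mean it was 32.8%. Above that floor the sets were not matched on level. Among the 74 members the coefficient ran from 8.90% for Ndufs3 to 41.2% for Atp5e. The complexes did not move as 1 unit among libraries. Control replicate 1 had the highest sums of the controls for complex IV (21683 TPM) and complex V (14500 TPM) and the lowest for complex II (1573 TPM). Control replicate 4 had the highest for complexes I (24169 TPM), II (2576 TPM) and III (8144 TPM), with complex V at 10827 TPM, close to the lowest value of 10782 TPM.

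**Figure D1:**
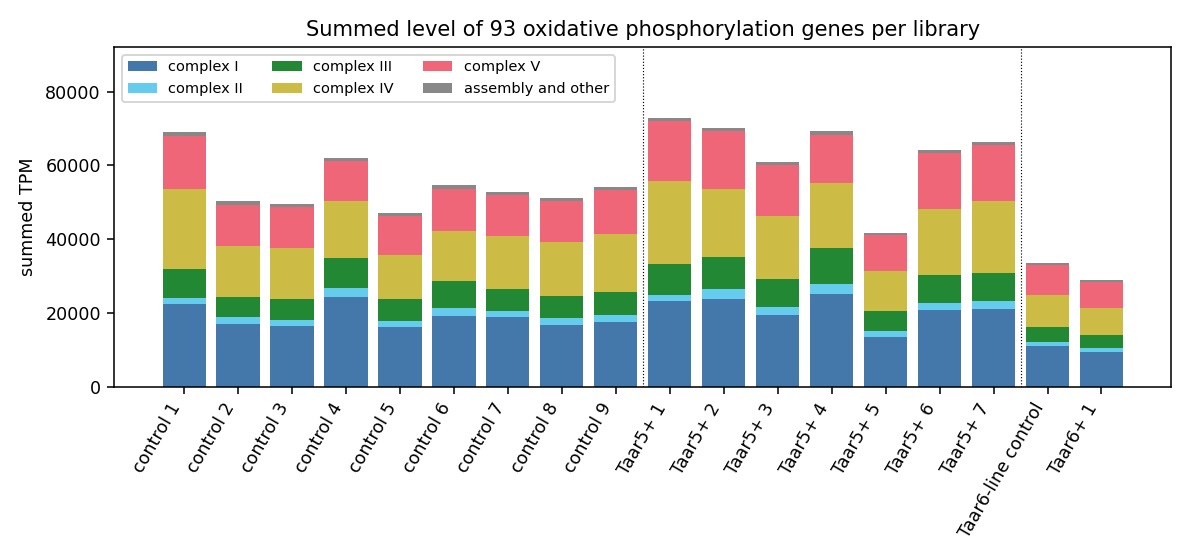
Summed TPM (vertical axis) of the 93 genes in each of the 18 libraries, stacked by complex. Taar5+ libraries reach 72906 TPM, Taar5+ replicate 5 lies at 41693 TPM, and both libraries of the Taar6 line lie below every library of the Taar5 line.

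Whether TAAR neurons and control cells differed in this pathway was asked with the Taar5 line. No member passed the test, but most members were slightly higher in Taar5+ cells. The summed level ran from 47104 TPM over a median of 52817 to 69013 TPM in controls, and from 41693 TPM over 66415 to 72906 TPM in Taar5+ libraries. The groups overlapped: 6 of 7 Taar5+ libraries lay above the control median, 3 lay above every control, and Taar5+ replicate 5 lay below every control. The log2 difference of the sums was 0.21, and 0.31 without Taar5+ replicate 5, whose absence raised the lowest Taar5+ sum to 60825 TPM. In bulk libraries, fewer cells of a type and less RNA per cell cannot be told apart.

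Markers of other cells also differed in level between the groups, without passing the threshold. The 3 horizontal basal cell markers summed to a median of 98.0 TPM (0 to 123) in controls and 5.01 TPM (0 to 181) in Taar5+ libraries, and all 3 were lower at an unadjusted p under 0.05 in the limma fit, with a median log2 fold change of -2.64. Values below 0 were also found for the 2 microvillar markers tested (median -2.02, 1 of them at an unadjusted p under 0.05), 4 of 5 blood and immune markers (-1.24, 2 of them), and 3 of 3 progenitor markers (-0.73, 0 of them). The sums were 122 TPM (12.6 to 608) in controls and 5.73 TPM (0.266 to 175) in Taar5+ libraries for microvillar, 1030 (4.67 to 6259) and 511 TPM (5.71 to 1462) for blood and immune, and 51.4 (0 to 91.5) and 3.04 TPM (0.628 to 88.7) for progenitor markers. Sustentacular markers had no clear direction. Of the 4, 3 were above 0 (median 0.64, 0 of them at an unadjusted p under 0.05). Their sum, however, had a higher median in controls, 410 TPM (51.8 to 6325), than in Taar5+ libraries, 294 TPM (56.8 to 8737). Below 0 were the 2 ensheathing glia markers tested (-0.75) and 3 of 4 immature OSN markers (-0.20), 0 of them at an unadjusted p under 0.05. Of the 5 mature OSN markers, Stoml3 was called lower in Taar5+ (log2 fold change -1.42 ± 0.24, SE, limma adjusted p = 0.00994). Cnga4 was also below 0 (-0.53 ± 0.32, SE), and 3 were above 0. The median over the 5 was 0.38, and 0.06 without control replicate 2. Summed, the 5 had a median of 28653 TPM in controls and 21663 TPM in Taar5+ libraries. The part of these markers in the level of the 93 genes was not tested.

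The limma model was fitted on log2(TPM + 1), a scale that compresses changes of low genes, after a filter that asked for 1 TPM or more in 7 or more of the 16 libraries. Of the 93 members, 87 passed this filter. With Benjamini-Hochberg adjustment over all 12502 genes and a threshold of 0.05, 0 members were called, beside 21 genes in all (0.168%). At an unadjusted p under 0.05 there were 10 members, against 7.05% of all genes, and 9 of the 10 were higher in Taar5+, against 1.67% of all genes in that direction. No member separated the groups without overlap in the higher direction, as 0.104% of all genes did. The log2 fold change was above 0 for 75 of the 87 members, against 51.4% of all genes, and its median was 0.20 over members and 0.02 over all genes. This count lay between 70 and 79 over the 29 alternatives of normalisation, filter, weights or left-out library that were run.

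Values above 0 were found in all 5 complexes. The log2 fold change was above 0 for 31 of 35 tested members of complex I (median 0.13), 4 of 4 of complex II (0.23), 9 of 9 of complex III (0.18), 13 of 14 of complex IV (0.27) and 14 of 15 of complex V (0.23). Among the assembly factors and others it was above 0 for 4 of 10, with a median of -0.05. The difference between these sets was not tested. Standard errors of single members had a median of 0.19, about the size of the median fold change itself.

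**Figure D2:**
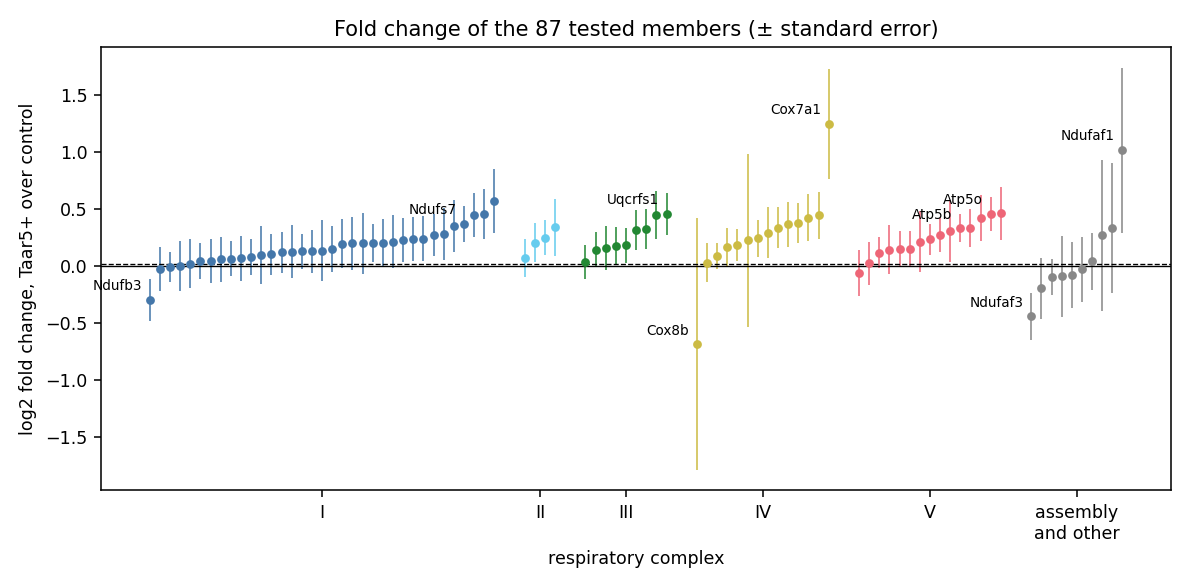
Log2 fold change of Taar5+ over control (vertical axis) with its standard error for the 87 tested members, ordered within each complex. The dashed line is the median of all 12502 genes, 0.02; 75 points lie above 0 and none passed the adjusted threshold.

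In complex V, Atp5o, the subunit that links the stalk to the head of the ATP synthase, had the lowest p of all members. It measured 830 TPM at the lowest, 948 at the median and 1099 at the highest control, and 723, 1447 and 1662 TPM in Taar5+ libraries. For Atp5o, all Taar5+ libraries but replicate 5, 6 of 7, lay above every control, a pattern that was not counted over all genes. Its log2 fold change was 0.46 ± 0.15 (SE; limma adjusted p = 0.32), and without Taar5+ replicate 5 it was 0.60 with a limma adjusted p of 0.00767, within a range of 0.00431 to 0.809 over 29 alternatives. All 530 bases of the Atp5o transcript also lie in exons of overlapping loci annotated on the same strand of chromosome 16, so its reads may have been divided between them. Atp5b ran from 1591 over 2317 to 2621 TPM in controls and from 2360 over 3008 to 3393 TPM in Taar5+ libraries. Of these, 4 of 7 exceeded every control, and the groups overlapped. Its log2 fold change was 0.33 ± 0.12 (SE; limma adjusted p = 0.44). Atp5a1, the alpha subunit that forms the head together with Atp5b, had control values of 697 to 1401 TPM and Taar5+ values of 790 to 1083 TPM, with a log2 fold change of 0.12 ± 0.14 (SE).

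In complex III, Uqcrfs1 ran from 261 over 468 to 585 TPM in controls and from 422 over 610 to 943 TPM in Taar5+ libraries. The groups overlapped, with 4 of 7 Taar5+ libraries above every control (log2 fold change 0.46 ± 0.19, SE; limma adjusted p = 0.54). Uqcrc1 and Cyc1 had log2 fold changes of 0.32 ± 0.18 and 0.14 ± 0.15 (SE). In complex I, Ndufs7, a core subunit near the quinone site, ran from 517 over 585 to 860 TPM in controls and from 555 over 902 to 1030 TPM in Taar5+ libraries (0.37 ± 0.16, SE; limma adjusted p = 0.61). Here too 4 of 7 Taar5+ libraries exceeded every control and the others fell inside the control range. The core subunits Ndufs1 and Ndufv1 had log2 fold changes of 0.10 ± 0.25 and 0.13 ± 0.15 (SE), and the complex II subunits Sdha and Sdhb of 0.20 ± 0.17 and 0.07 ± 0.16 (SE).

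In complex IV, the ubiquitous subunits Cox4i1, Cox5a and Cox6c had log2 fold changes of 0.18 ± 0.14, 0.42 ± 0.21 and 0.03 ± 0.17 (SE). Cox7b, a small structural subunit, ran from 331 over 412 to 563 TPM in controls and from 237 over 650 to 718 TPM in Taar5+ libraries, of which 5 of 7 exceeded every control and replicate 5 lay below every control. Its log2 fold change was 0.44 ± 0.20 (SE; limma adjusted p = 0.66), and without Taar5+ replicate 5 it was 0.65 with a limma adjusted p of 0.0373, within a range of 0.00809 to 0.947 over 29 alternatives.

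**Figure D3:**
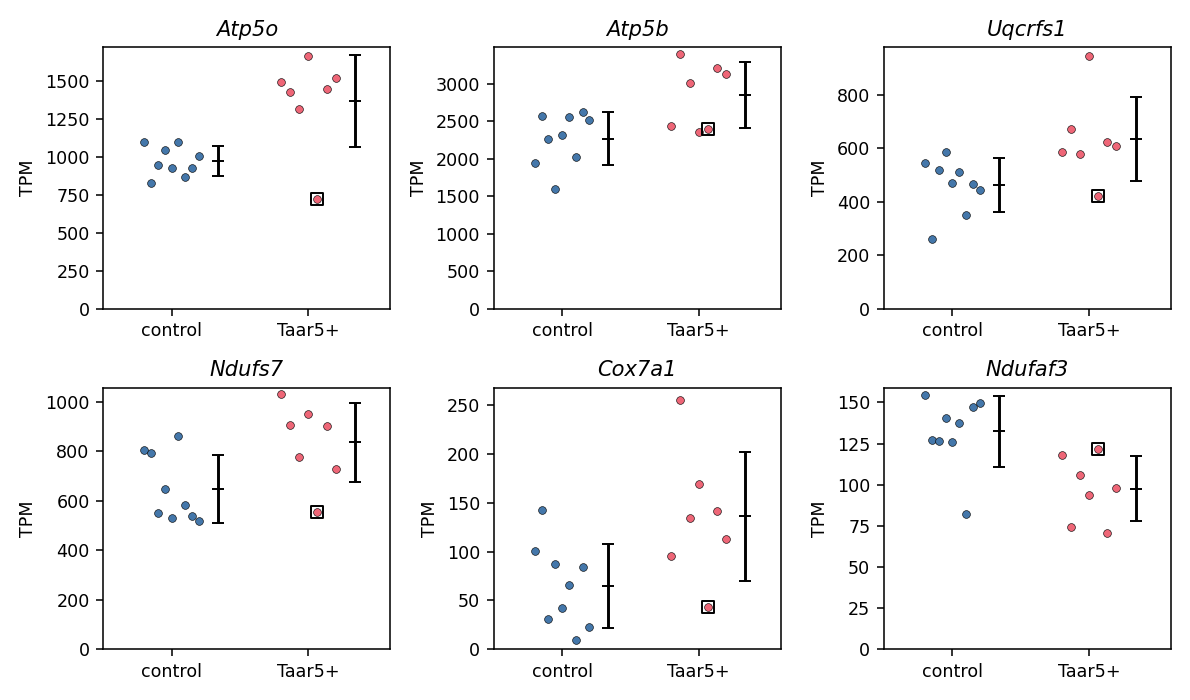
TPM (vertical axes, from 0) of 6 members in each control and Taar5+ library, with the group mean and SD beside the points. The square marks Taar5+ replicate 5, the lowest Taar5+ value of Atp5o (723 TPM) and Cox7a1 (43.5 TPM) and the highest of Ndufaf3 (122 TPM).

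Taar5+ replicate 5 carried much of this spread. It had the lowest Taar5+ value for 60 of the 87 tested members and the highest for 3. Markers of several other cell types were highest in this library among the Taar5+ libraries. Besides the sustentacular markers, horizontal basal markers summed to 181 TPM against at most 17.5 in the others, microvillar markers to 175 TPM against at most 38.7, and progenitor markers to 88.7 TPM against at most 12.5. Their part in the lower values was not tested. Without it limma called 2 members, Atp5o and Cox7b, both higher, against 0.251% of all genes in that direction. Without both this library and control replicate 2 it called 3, Atp5o, Cox7b and Cox7a1, all higher in Taar5+, against 0.411% of all genes in that direction. With libraries weighted by their quality, limma called 1410 of 12502 genes, 1213 of them lower. Among these calls were 15 members, 14 of them higher, against 1.58% of all genes in that direction. These calls included Atp5b, Atp5a1, Cox5a, Cox8a and Ndufs7 (higher) and Ndufaf3 (lower). The median over all genes then moved to -0.16 with weights and to -0.22 without the pair, while that of the members was 0.25 and 0.26.

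Values were lower in Taar5+ for 12 of the 87 tested members, of which 6 were assembly factors or others. Ndufaf3, an assembly factor of complex I, ran from 81.9 over 138 to 155 TPM in controls and from 70.9 over 98.3 to 122 TPM in Taar5+ libraries. All 7 Taar5+ libraries lay below the control median, and the groups overlapped. Its log2 fold change was -0.44 ± 0.21 (SE; limma adjusted p = 0.68), and Ndufaf3 was the 1 member lower at an unadjusted p under 0.05. Ndufb3, an accessory subunit of complex I, had -0.30 ± 0.19, the assembly factor Ndufaf4 -0.20 ± 0.27, and Cox7a2l, which joins complexes III and IV in supercomplexes, -0.10 ± 0.16 (SE). Ndufaf1, another complex I assembly factor, had the second largest positive value among members, 1.02 ± 0.72 (SE), beside a control library listed at 0.

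Alternative isoforms were asked for because a cell can exchange a subunit without changing the amount of a complex. In every set the widely expressed gene dominated. Cox7b2 and Cox8c, known from testis, were listed at 0 in all 18 libraries. Cox6a2, the muscle form of subunit 6a, reached at most 0.956 TPM, and Ndufa4l2, a relative of Ndufa4 that responds to hypoxia, at most 1.07 TPM. Cox4i2, the lung form, was listed at 0 in 13 of 18 libraries and reached 22.5 TPM in control replicate 7, where it made up 0.689% of subunit 4. Cox6b2, the testis form of subunit 6b, was at most 21.6 TPM.

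The exception by level was Cox7a1, the heart and muscle form of subunit 7a (chr7:30184144-30186078 on GRCm38, plus strand, 4 exons). It ran from 9.91 over 65.8 to 142 TPM in controls and from 43.5 over 134 to 255 TPM in Taar5+ libraries. The groups overlapped, with 2 of 7 Taar5+ libraries above every control. Its log2 fold change was the largest of all members, 1.25 ± 0.48 (SE; limma adjusted p = 0.49), and without control replicate 2 and Taar5+ replicate 5 it was 1.67 with a limma adjusted p of 0.0435, within a range of 0.000582 to 0.831 over 29 alternatives. Cox7a2, the widely expressed form, had 0.37 ± 0.20 (SE). As a share of Cox7a1 plus Cox7a2, Cox7a1 made up 9.64% ± 7.48 in controls and 13.9% ± 4.78 in Taar5+ libraries (SD, n = 9 and 7). The difference of 4.25 percentage points gave p = 0.212 in an exact two-sided permutation test over 11440 arrangements (adjusted p = 0.390 over 6 shares tested). In the Taar6 line the share was 17.9% in Taar6+ and 6.67% in control cells, single libraries with no replicate check.

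Cox8b, the heart and muscle form of subunit 8, ran from 0 over 21.4 to 91.2 TPM in controls and from 0 over 13.2 to 69.8 TPM in Taar5+ libraries, with a log2 fold change of -0.69 ± 1.10 (SE). It made up 2.25% ± 2.07 of subunit 8 in controls and 1.14% ± 1.58 in Taar5+ libraries (exact permutation p = 0.260, adjusted p = 0.390). Its control level was above 0 in 7 of 9 libraries. The Cox6b2 share was 0.141% ± 0.289 in controls and 0.333% ± 0.694 in Taar5+ libraries (exact permutation p = 0.571, adjusted p = 0.685).

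The 3 genes Atp5g1, Atp5g2 and Atp5g3 encode the same mature c subunit of the ATP synthase ring. Atp5g3 made up 56.8% ± 4.33 of their sum in controls and 60.3% ± 6.25 in Taar5+ libraries, Atp5g2 24.2% ± 3.72 and 24.1% ± 4.21, and Atp5g1 19.0% ± 3.88 and 15.6% ± 3.47 (SD, n = 9 and 7). The differences were 3.505, -0.09 and -3.41 percentage points, with exact permutation p of 0.210, 0.963 and 0.0899 and adjusted p of 0.390, 0.963 and 0.390. Without Taar5+ replicate 2 the Atp5g3 difference was 1.68. None passed the threshold, and the order Atp5g3, Atp5g2, Atp5g1 was that of the group means in both groups. In the Taar6 line Atp5g3 made up 97.5% of the sum in Taar6+ and 97.4% in control cells, with Atp5g2 listed at 0 in both libraries and Atp5g1 at 26.9 and 29.0 TPM.

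Many genes of this pathway have processed pseudogenes, copies of the mature transcript elsewhere in the genome, and reads from a shared stretch cannot be placed from sequence alone. In GENCODE M21 (GRCm38), 37 of the 93 members had at least 1 stretch of 50 bases in common with a transcript of another, non-overlapping gene, and 56 had none. How the reads that map to several places were counted is not stated for these values. The most affected members were Atp5g2, with 87.4% of its 50-base stretches shared, Atp5l with 68.5%, Cox7c with 53.0%, Atp5h with 47.9% and Uqcrb with 43.2%.

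For 2 members the copy has a row of its own. Ndufs5, an accessory subunit of complex I on chromosome 4, was at nearly 0 almost throughout. Its values were between 0.0008 and 0.0034 TPM in 17 libraries and 10.03 TPM in Taar5+ replicate 7. The processed pseudogene BC002163 (chr16:42955631-42955949, plus strand), which shares 31.1% of the stretches of Ndufs5, held 396 to 928 TPM in the Taar5 line and 109 and 111 TPM in the Taar6 line. Over the 318 coding bases of Ndufs5 the copy is 99.4% identical. The first 240 bases, with the 2 positions that differ in capitals, show how little separates them:
Ndufs5: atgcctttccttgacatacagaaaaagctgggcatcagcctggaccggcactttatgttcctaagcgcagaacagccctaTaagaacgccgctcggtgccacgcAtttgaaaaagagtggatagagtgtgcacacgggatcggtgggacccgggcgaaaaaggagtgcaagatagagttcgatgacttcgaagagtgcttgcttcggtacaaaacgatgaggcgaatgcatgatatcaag
BC002163: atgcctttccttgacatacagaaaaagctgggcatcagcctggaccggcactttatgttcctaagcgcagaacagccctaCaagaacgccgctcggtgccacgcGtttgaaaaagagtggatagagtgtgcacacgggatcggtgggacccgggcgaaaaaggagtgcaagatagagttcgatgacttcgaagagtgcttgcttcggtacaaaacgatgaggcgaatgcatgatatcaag

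Cox7c, a small complex IV subunit, and the pseudogene Gm10012 (chr17:25901856-25902227, plus strand) differ at 2 of 189 coding bases (98.9% identical), again in capitals:
Cox7c: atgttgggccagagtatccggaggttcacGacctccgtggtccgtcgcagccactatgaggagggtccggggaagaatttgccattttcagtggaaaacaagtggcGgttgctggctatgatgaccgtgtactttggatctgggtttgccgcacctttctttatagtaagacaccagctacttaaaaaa
Gm10012: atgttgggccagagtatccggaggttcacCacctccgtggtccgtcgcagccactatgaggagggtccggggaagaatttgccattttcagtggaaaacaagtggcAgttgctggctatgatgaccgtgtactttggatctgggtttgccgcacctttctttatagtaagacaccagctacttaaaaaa

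Gm10012 held 77.2 to 326 TPM in the Taar5 line, where Cox7c itself held 141 to 411 TPM, and 1.07 and 0 TPM in the Taar6 line. In each library of the Taar5 line the member lay above the copy. The values of Ndufs5, BC002163, Cox7c and Gm10012 are therefore uncertain as measures of either gene, and Ndufs5 was not among the 87 tested members.

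**Figure D4:**
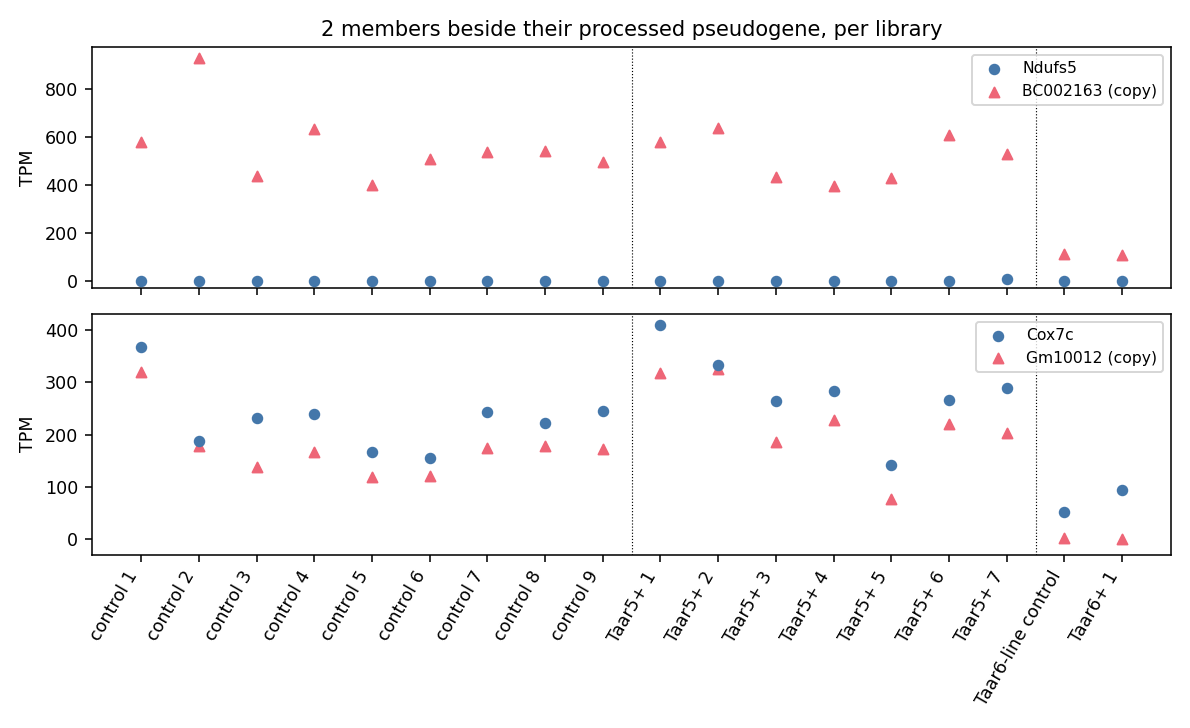
TPM (vertical axes) of Ndufs5 and BC002163 (top) and of Cox7c and Gm10012 (bottom) in each of the 18 libraries. Circles are the members and triangles their copies; Ndufs5 lies near 0 in 17 libraries and at 10.03 TPM in Taar5+ replicate 7, while BC002163 lies between 109 and 928 TPM.

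The Taar6 line was measured in 1 library of each kind, with no replicate check and no test. There the 93 genes summed to 28940 TPM in Taar6+ and 33619 TPM in control cells, 2.89% and 3.36% of the library. Both lay below the lowest library of the Taar5 line. Taar6+ was lower than its control for 74 of the 87 members tested in the Taar5 line, against 69.6% of the 12502 genes, and the median difference of log2(TPM + 1) was -0.21 over members and -0.19 over all genes. All 5 complexes were lower by their sums, for instance complex I with 9286 TPM in Taar6+ against 10885 TPM and complex V with 7162 against 8143 TPM. Line, reporter, age and library cannot be told apart here.

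The low level in the Taar6 line was uneven. Set as the mean of both libraries in percent of the median of the 16 Taar5-line libraries, the 86 members with a median of at least 5 TPM had a median of 55.5%, against 122% over the 9239 genes at that level. The 50 members with no shared stretch had a median of 64.1% and ran from 33.7% for Ndufb6 to 198% for Atp5g3, and 0 of them fell below 20%. The 18 members with more than 0 but under 10% of shared stretches had a median of 53.4%. The 18 with 10% or more had a median of 28.1%, and 8 of these fell below 20%, the only members to do so. Across the 86 members, Spearman's rho between shared stretches and this percentage was -0.62, a description over genes measured in the same libraries.

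The members lowest in the Taar6 line were Atp5g2, listed at 0 in both libraries against a median of 202 TPM in Taar5-line controls, and Atp5l, a membrane subunit of the ATP synthase, at 3.97 TPM in Taar6+ and 7.30 TPM in control cells against 644 TPM. Ndufb4 measured 8.11 and 2.97 TPM against 191 TPM, and Cox5b 49.1 and 75.8 TPM against 622 TPM. Gapdh and Ppia, abundant genes outside the pathway, were also low, at 1.43 and 6.06 TPM and at 0 and 0 TPM in Taar6+ and control cells. In the Taar5 line they had at least 436 and 971 TPM. Their shared stretches were not measured. Whether reads shared with copies were handled otherwise in these 2 libraries was not tested. In the Taar5 line the 18 members with 10% or more of shared stretches had a median log2 fold change of 0.14, above 0 for 16 of 18, and the 50 with none had 0.18, above 0 for 42 of 50.

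**Figure D5:**
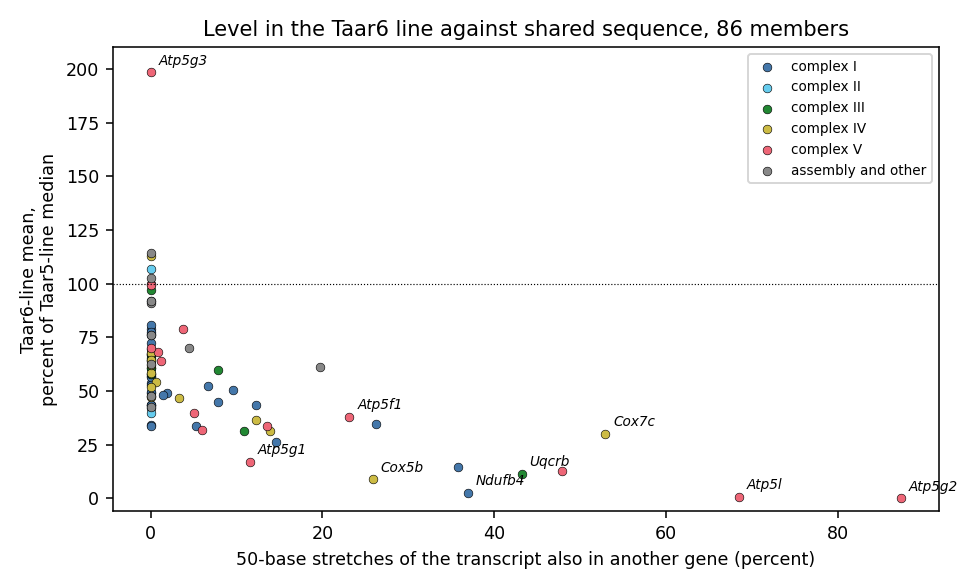
Mean level in the 2 Taar6-line libraries as a percent of the Taar5-line median (vertical axis) against the percent of 50-base stretches shared with another gene (horizontal axis), for 86 members coloured by complex. Members below 20% all have at least 10% of their stretches shared, and Atp5g3 lies at 198%.

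Other genes that support respiration showed no call in the same limma fit. Lists were made of assembly factors outside the 93 genes (29 tested), regulators of mitochondrial biogenesis (13), the citric acid cycle (13), glycolysis (16) and mitochondrial carriers and pores (13), and 0 genes of any list were called. At an unadjusted p under 0.05, 1 regulator was higher, 1 glycolytic gene was higher and 1 lower, and no gene of the other 3 lists passed. Beside 75 of the 87 members, values above 0 were found for 13 of 16 glycolytic genes, 11 of 13 carriers and 10 of 13 citric acid cycle genes. They were found for 19 of 29 assembly factors and 8 of 13 regulators. The median log2 fold change was 0.26 for assembly factors, 0.04 for regulators, 0.06 for the citric acid cycle, 0.32 for glycolysis and 0.12 for carriers. Without control replicate 2, in which 14 of the 29 assembly factors and 9 of the 13 regulators were listed at 0, these became -0.06, -0.28, 0.01, 0.05 and 0.14, while the median over all genes moved from 0.02 to -0.17. The members of the 5 complexes, at higher levels, were rarely at 0 in that library: over all libraries 10 of the 93 were listed at 0 at least once, and 82 had at least 1 TPM in all 18.

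Exons of 24 members overlap an exon on the opposite strand in the annotation, among them Uqcrc2 over 504 bases (Pdzd9), Atp5f1 over 540 bases (Wdr77 and Gm42890) and Ndufa13 over 375 bases (Tssk6). Strand was not stated for the counting, so reads of such pairs cannot be told apart, and the values of these members are uncertain to that extent.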

How the data were processed

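Per the labels and the study's methods, the authors prepared Smart-seq2 libraries of sorted cells, and the submitters' processing notes name Trimmomatic 0.36, HISAT2 2.1.0, Cufflinks 2.2.1 and DESeq2 with GRCm38 (mm10). The deposited unit is TPM, per gene symbol. How TPM were derived, the annotation, strand and the treatment of multiply mapping reads are not given in the sources used here. Depth is unknown.

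Rows that repeat a symbol (488, none of a member) were summed. Taar values of control replicate 2 equal those of replicate 1 for 13 genes and were left out of the fit. Genes at 1 TPM or more in 7 or more of 16 libraries were fitted with limma 3.58.1 (R 4.3.3; lmFit, eBayes with trend) on log2(TPM + 1), and p-values were adjusted by Benjamini-Hochberg (threshold 0.05). The step was tested on simulated data. Isoform shares were compared by exact two-sided permutation in Python 3.11.15 (numpy 2.4.6, pandas 2.3.3). Shared stretches were words of 50 bases compared with GENCODE M21 transcripts, pseudogenes included. A search of the whole genome was planned and not made here. Promoter windows are from RefSeq. Members named in the text were the 5 lowest unadjusted p in each direction, any called or without overlap, the 5 highest and 5 lowest levels, fixed core subunits (1 is not reported here), isoform sets and members at 0 in the Taar6 line; Cox5b, Atp5l, Ndufb4, Cox7c, Ndufs5 and others described for shared sequence or overlapping exons, and single extremes such as Ndufs3, Ndufb6 and Atp5e, were chosen after their values were seen. The members and lists were chosen with earlier results of these data known.

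The labels number the libraries alike in both groups. Deviations of same-numbered libraries were compared, and alternatives were another pseudocount, other filters, normalisation and weights, a replicate block, all 18 libraries, and each library left out.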

Additional observations from a re-analysis of the deposited data

Results flagged for a closer look

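Each group of 7 Taar5+ or 9 control libraries was searched for a library whose gap to its neighbour was large for the range of the group (Dixon's 95% limits), over the named members, the sums and the isoform shares. Of 96 groups of values, 26 held such a library. The limits pass about 1 in 20 groups by chance only if groups are independent and values normally distributed. The groups here were genes, sums and shares from the same libraries, and some isoforms were undetected in most libraries. That rate therefore does not apply, and no excess over chance was drawn from the 26.

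Taar5+ replicate 5 accounted for 8 of them. It was lowest for Atp5o (723 TPM), Cox6a1 (1624 TPM), Cox7b (237 TPM) and Ndufa4 (1619 TPM) and for the sum of all 93 genes (41693 TPM), and highest for Cox4i2 (3.39 TPM), the Cox6b2 share (1.88%) and the Cox8b share (4.51%). The 4 sustentacular markers summed to 8737 TPM in this library, against 56.8 to 1833 TPM in the other Taar5+ libraries. Their part in these values was not tested.

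Control replicate 1 accounted for 7, all as the highest control. These were Atp5g1 (244 TPM), Atp5g2 (413 TPM), Atp5g3 (914 TPM), Cox7b (563 TPM), Cox8a (3116 TPM) and the sums of complex IV (21683 TPM) and complex V (14500 TPM).

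The other 11 were spread over 7 libraries. Control replicate 2 was highest for Atp5a1 (1401 TPM). In control replicate 4 Atp5sl was listed at 0 TPM and Sdhb was highest (1472 TPM). Control replicate 7 was highest for Cox4i2 (22.5 TPM) and lowest for Ndufaf3 (81.9 TPM). Control replicate 9 was highest for Cox6a2 (0.956 TPM), Cox6b2 (18.8 TPM) and the Cox6b2 share (0.901%). Single Taar5+ libraries stood out for Ndufa4l2 (replicate 3, 1.07 TPM), Ndufaf1 (replicate 4, 121 TPM) and the Atp5g2 share (replicate 2, 15.3%).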

How the results depend on the processing

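The count of members called was 0 in limma and in 25 of its 29 alternatives. It was 15 with array weights, 14 with array weights and control replicate 2 left out (chosen after seeing the data), 3 without control replicate 2 and Taar5+ replicate 5, and 0 to 2 with each library left out, the 2 without Taar5+ replicate 5. Over all genes the calls were 1410 of 12502 with array weights and 1414 of 12460 with control replicate 2 also left out. They were 337 of 11915 without the pair of libraries and 66 of 11968 without Taar5+ replicate 5, against 21 of 12502 in the main fit. The cause was not tested. The median log2 fold change of the members was 0.20 and stayed above 0, from 0.14 to 0.26. The log2 difference of the sums was 0.21, and 0.18 to 0.31 with each library left out. The other lists kept 0 calls without control replicate 2 and under the replicate block.

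Same-numbered libraries deviated together with correlations of -0.01 to 0.28, not all above 0.1, so the numbers were not taken to pair the samples. With the replicate block 0 members were called, as without it. Each Taar5+ library deviated most like the control of its own number in 3 of 7 pairs, so a pairing of some libraries is not excluded. The block turned the log2 fold change of Ndufs1 to -0.030.

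No isoform share passed the threshold under any alternative. With each library left out, the Cox6b2 share difference ran from -0.066 to 0.29 that of Atp5g2 from -0.93 to 1.36, that of Atp5g3 from 1.68 (without Taar5+ replicate 2) to 4.82, that of Cox8b from -1.67 to -0.67 (without control replicate 6), that of Cox7a1 from 2.92 to 6.37 and that of Atp5g1 from -4.21 to -2.69 percentage points. Of the 33 named members fitted, 25 kept their sign under every alternative. With each library left out the others ran from -0.11 to 0.056 (Atp5g1), -0.34 to 0.40 (Atp5sl), -0.30 to 0.62 (Cox6b2), -0.045 to 0.12 (Cox6c), -0.30 to 0.043 (Ndufaf5) and -0.017 to 0.24 (Ndufs1). Array weights turned Atp5g1 to 0.014, Cox6b2 to -0.49, Ndufaf1 to -0.034 and Ndufaf4 to 0.023. With control replicate 2 also left out these were 0.017, -0.49, -0.053 and 0.027. Quantile normalisation turned Atp5g1 to 0.050, Cox6c to -0.00649 and Ndufaf5 to 0.020. A pseudocount of 0.1 turned Cox6b2 to -0.032, and all 18 libraries turned Cox6c to -0.032. Without the pair of libraries Ndufaf4 was 0.019. TPM carry no depth, so how far depth limits these values is unknown.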
